A study of Mus musculus with 9 samples.

Results

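The tripartite motif (TRIM) genes of the mouse were followed in B16F10 cells, a mouse melanoma line, carrying guides against Tada2b or a control guide. Members were the protein-coding genes whose symbol begins with Trim and a digit in the GENCODE M21 annotation of mm10, which gave 67 genes among the 54752 rows of the count table. One further gene with such a symbol is not reported here. Of the 67 members, 44 passed the filter on low counts and were tested together with all 17931 genes that passed, and 23 did not pass.

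The 9 libraries formed 3 groups of 3. Tada2bsg1 (guide 1) and Tada2bsg2 (guide 2) both carried the genotype label Tada2b knockout, and GFPsg, a guide named for GFP, carried the genotype label WT. All cells were kept in DMEM with 10% FBS. Tada2b is a subunit of SAGA, a coactivator complex that acetylates histones. Whether the edited cells were pools or single clones is not given in the sources used here, nor whether replicates were separate cultures, so that p-values measure only the spread between these libraries, which may be technical.

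TRIM proteins share a RING domain, B-box zinc fingers and a coiled coil, and most act as E3 ubiquitin ligases. Their classes differ in the C-terminal domain, of which the PRY-SPRY domain is the most common. Many PRY-SPRY members are induced by interferon and act in innate immunity, where they bind viral capsids or antibodies, or ubiquitinate the sensors and adaptors of antiviral signalling. Other classes bind microtubules, read histone marks or serve muscle and neurons.

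Library totals ran from 70.6 to 76.9 M counts. The mRNA of the targeted gene was not lower in the libraries labelled knockout. Tada2b stood at 32.3, 33.3 and 32.7 CPM with guide 1 and at 29.0, 26.0 and 25.9 CPM with guide 2, against 28.0, 25.2 and 26.6 CPM in GFPsg (CPM, read counts scaled to library size after TMM), and with guide 1 it was called higher (log2 0.30; edgeR adjusted p = 0.000213), so that gene-level counts do not check the label. Melanocyte markers were abundant in every library, and all 7 were lower with the guides, at a summed 4973 to 5210 CPM with guide 1 and 7032 to 7274 CPM with guide 2, against 20322 to 21118 CPM in GFPsg. Summed leukocyte markers were at 6.94 to 7.37 and 6.14 to 6.35 CPM with guides 1 and 2, against 3.61 to 3.93 CPM in GFPsg. Of the 8 leukocyte markers, Ptprc and Itgam had no read in any library, Cd3e had 1 read over all libraries, and of the 4 tested 3 rose and 1 fell. Of 6 tested fibroblast and endothelial markers 4 rose and 1 fell, with sums of 248 to 259 and 213 to 247 CPM against 17.6 to 19.8 CPM. Col1a1 made most of the sums with the guides, at a mean of 225 and 202 CPM with guides 1 and 2, against 7.27 CPM in GFPsg. Pdgfra was not called, and Vwf fell by 2.11 on the log2 scale. Of 3 tested epithelial markers 1 rose and 1 fell (sums 0.582 to 0.739 and 0.572 to 0.697, against 1.05 to 1.30 CPM), and of 2 tested skeletal muscle markers 1 rose and 1 fell (sums 0.981 to 1.30 and 1.17 to 1.43, against 1.48 to 1.94 CPM). The part of the fibroblast and melanocyte marker shifts in the TRIM values was not tested.

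RefSeq windows of GRCm38.p6, from 250 bases before to 50 after each start, were listed for 52 of the 67 members (66 windows) and not for Trim16. The interferon-stimulated response element (ISRE), the site of the ISGF3 complex and of interferon regulatory factors, was searched on both strands as GAAA, any 2 bases, then GAAA. It was found for 9 of the 52 members, in 10 of their 66 windows. Of all 32851 windows, 3.44% held it. The following stretches give 60 bases around the match for 8 of these members, 5′ to 3′ on the strand of the gene, with the ISRE letters of either strand in capitals. The set holds 5 neighbours on chromosome 7 that rose, Trim5 from the same block, which was not called, and Trim21 and Trim26 from outside that block. Trim34b, also in the block, held no match. It was called higher, but from 3 or 4 reads in each GFPsg library, and it passed the filter only through the libraries of the guides.
Trim30a, chr7:104465195-104465254, minus strand: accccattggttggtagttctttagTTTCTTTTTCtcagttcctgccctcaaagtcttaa
Trim30d, chr7:104507856-104507915, minus strand: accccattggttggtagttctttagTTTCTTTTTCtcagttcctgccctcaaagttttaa
Trim34a, chr7:104244427-104244486, plus strand: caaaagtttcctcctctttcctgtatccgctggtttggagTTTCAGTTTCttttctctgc
Trim12a, chr7:104315466-104315525, minus strand: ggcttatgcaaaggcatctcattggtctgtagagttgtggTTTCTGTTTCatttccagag
Trim12c, chr7:104353344-104353403, minus strand: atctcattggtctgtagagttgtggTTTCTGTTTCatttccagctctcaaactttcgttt
Trim5, chr7:104288121-104288180, minus strand: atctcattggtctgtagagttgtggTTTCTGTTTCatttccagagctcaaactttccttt
Trim21, chr7:102565453-102565512, minus strand: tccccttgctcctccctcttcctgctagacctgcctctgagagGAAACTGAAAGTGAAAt
Trim26, chr17:36836964-36837023, plus strand: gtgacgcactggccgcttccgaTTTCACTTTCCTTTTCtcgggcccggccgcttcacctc

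Trim21 and Trim26 each held 2 matches that overlapped. Centred on the match, the 60 bases of Trim30a and Trim30d were identical at 59 positions, those of Trim12a and Trim5 at all 60, and those of Trim12c and Trim5 at 57. The remaining member with a match was Trim2.

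In the libraries labelled knockout, 11 of 12 tested TRIM genes listed as interferon-inducible rose, Trim30a, Trim30d, Trim34a and Trim34b by 7.97-fold to 10.9-fold, and Trim16 rose as strongly. The interferon list was chosen with earlier results of these data known. Trim63 fell 2.20-fold, and Trim9, from few reads, 4.29-fold. In the knockout contrast, the mean of both guides over GFPsg, 19 of the 44 tested members were called higher and 14 lower (edgeR adjusted p under 0.05), and 11 were not called. Of all tested genes, 51.0% were called, 24.7% higher and 26.3% lower. With library size alone as the scaling, 23 members were called higher and 9 lower, and no called member changed sign. By at least 2-fold, 10 members rose and 2 fell, against 6.88% and 4.33% of all tested genes. Trim34b and Trim9 passed the filter on low counts without reaching its cutoff of 0.134 CPM in every library. Trim34b reached it in none of GFPsg and Trim9 in none of guide 1. Each passed through the libraries where it was higher, which ties its selection to the difference. The other 42 tested members reached the cutoff in all 9 libraries, and of these 18 rose and 13 fell, 9 and 1 of them by at least 2-fold. The median log2 change was 0.11 over the tested members and −0.019 over all tested genes.

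Guide by guide, 18 members rose and 15 fell with guide 1 (48.4% of all genes were called, 23.8% higher and 24.5% lower), and 19 rose and 10 fell with guide 2 (45.1% of all genes, 22.1% higher and 23.0% lower). Both guide contrasts share the GFPsg libraries. The 6 knockout and 3 GFPsg libraries did not overlap in CPM for 29 tested members, against 44.0% of all tested genes.

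**Figure D1:**
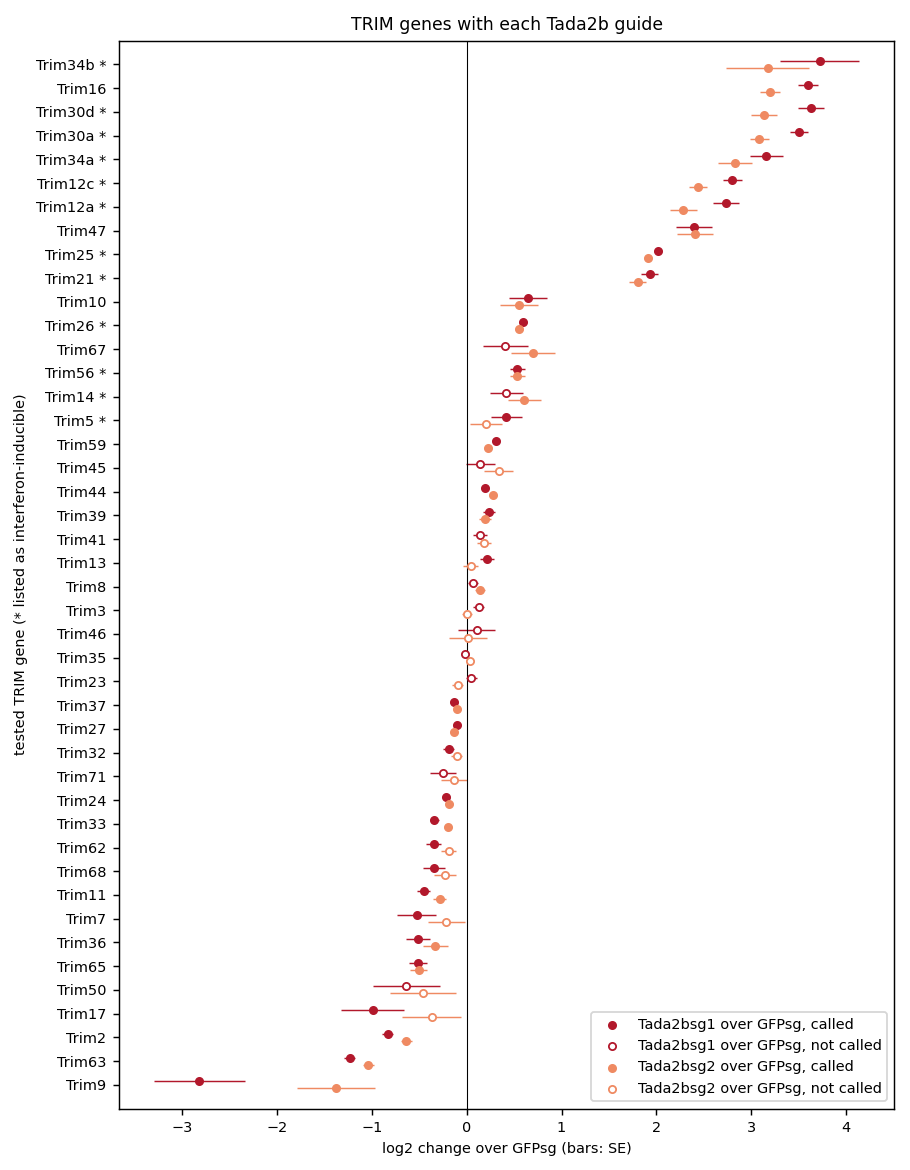
Log2 change of each of the 44 tested TRIM genes with guide 1 and guide 2 over GFPsg (x axis; bars, SE), ordered by the mean of both (y axis); filled points were called at adjusted p under 0.05, and asterisks mark genes listed as interferon-inducible. The 10 genes at the top lie between 1.87 and 3.45 in the mean of both guides, apart from the rest, which lie at 0.60 or below.

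A list of 17 TRIM genes known as interferon-inducible had 12 tested members. Of these 11 rose (10 of 11 without Trim34b), none fell and Trim5 was not called, with a median log2 change of 2.24. The list was chosen with earlier results of these data known, and 7 of its 12 tested members lie in 1 block on chromosome 7. The 32 other tested members gave 8 that rose (25%) and 14 that fell (43.8%), with a median of −0.12. Of all tested genes, 24.7% were called higher and 26.3% lower. Among the PRY-SPRY members, which the list draws on most, 13 of 23 tested rose (56.5%), 6 fell (26.1%) and 4 were not called. The 5 listed genes that were not tested, Trim6, Trim30b, Trim30c, Trim38 and Trim69, had between 6 and 40 reads over all 9 libraries.

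Of the 10 members that rose at least 2-fold, 6 lie in 1 block of genes on chromosome 7. Trim34b is among the 6, and it passed the filter only through the libraries of the guides. Between Trim6 and Trim30d (104218793 to 104507849, mm10) the annotation places 10 TRIM genes in 289 kb and no other protein-coding gene. These are the mouse relatives of human TRIM5, TRIM6 and TRIM34 with the rodent Trim30 genes. Their summed level averaged 63.4 ± 1.99 CPM with guide 1 and 48.0 ± 3.34 CPM with guide 2, and 7.84 ± 1.21 CPM in GFPsg (SD, n = 3 each). Of the 7 that were tested, 6 rose, each by more than 5-fold and again counting Trim34b, against 24.7% higher of all tested genes.

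Trim30a, which restrains NF-kB signalling by Toll-like receptors in mouse cells, is the most abundant of the block (ENSMUSG00000030921, 104409025 to 104465193, minus strand). It was counted at 27.5, 28.5 and 30.5 CPM with guide 1 and at 22.8, 19.7 and 22.1 CPM with guide 2, against 2.04, 2.65 and 2.92 CPM in GFPsg. All 6 knockout libraries lay above all GFPsg libraries, and the change was 9.83-fold (log2 3.30 ± 0.09, SE; edgeR adjusted p = 8.67e-15). Its neighbour and paralog Trim30d (ENSMUSG00000057596) had 5.68, 5.35 and 5.54 CPM with guide 1 and 4.09, 3.87 and 3.78 CPM with guide 2, against 0.365, 0.525 and 0.448 CPM in GFPsg. It rose 10.5-fold (log2 3.39 ± 0.13, SE; edgeR adjusted p = 4.88e-13), again without overlap. In bulk RNA, more cells expressing a gene and more of its RNA per cell cannot be told apart. The near-identical promoter stretches of both genes are those shown first above. Of the words of 50 bases in Trim30d transcripts, 6.39% were also found in Trim30a transcripts.

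The paralogs Trim30b and Trim30c did not pass the filter. Trim30c was at 0 in all GFPsg libraries and had 9, 3 and 1 reads with guide 1 and 7, 2 and 4 reads with guide 2. Its summed level was at least 4.03-fold higher with the guides, taking 3 reads over the GFPsg group as the floor. Trim30b had 0, 3 and 0 reads with guide 1, 1 read in each guide 2 library and none in GFPsg, which is too few for a fold. The pseudogene Trim30e-ps1, which lies just outside the block, had no read in any library.

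Trim34a (ENSMUSG00000056144), an interferon-inducible gene, had 7.94, 7.69 and 6.97 CPM with guide 1 and 5.93, 5.63 and 6.38 CPM with guide 2, against 0.459, 0.959 and 1.12 CPM in GFPsg. The groups did not overlap, GFPsg replicate 1 was the lowest library, and the change was 7.97-fold (log2 2.99 ± 0.17, SE; edgeR adjusted p = 9.04e-11). Of its exons 23.5% overlap the antisense gene Gm47248. Its copy Trim34b (ENSMUSG00000090215) stood far lower, at 0.570, 0.497 and 0.860 CPM with guide 1 and 0.539, 0.374 and 0.405 CPM with guide 2, against 0.0405, 0.0600 and 0.0420 CPM in GFPsg, which was 3 or 4 reads a library. The fitted difference was 10.9-fold (log2 3.45 ± 0.40, SE; edgeR adjusted p = 1.23e-06), for a gene that passed the filter through the libraries of the guides alone. Of the 50-base words of Trim34b transcripts 56.8% also lie in Trim34a, so their single values are uncertain. The sum of both changed by 3.03 on the log2 scale (edgeR adjusted p = 3.88e-11). That sum is mostly Trim34a and does not settle the value of Trim34b.

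The mouse relatives of TRIM5, in primates a restriction factor that binds retroviral capsids, behaved unequally. Trim12c (ENSMUSG00000057143) had 13.5, 14.2 and 13.9 CPM with guide 1 and 11.7, 9.64 and 11.0 CPM with guide 2, against 1.73, 2.16 and 2.08 CPM in GFPsg. It rose 6.15-fold (log2 2.62 ± 0.09, SE; edgeR adjusted p = 1.62e-13). Trim12a (ENSMUSG00000066258) had 4.90, 5.19 and 6.14 CPM with guide 1 and 4.05, 3.57 and 4.27 CPM with guide 2, against 0.757, 0.840 and 0.839 CPM in GFPsg. It rose 5.70-fold (log2 2.51 ± 0.13, SE; edgeR adjusted p = 2.36e-11), and for both genes every knockout library lay above every GFPsg library.

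Trim5 itself (ENSMUSG00000060441) lies between Trim34a and Trim12a. It had 1.38, 1.56 and 1.63 CPM with guide 1 and 1.18, 1.34 and 1.42 CPM with guide 2, against 1.04, 1.09 and 1.29 CPM in GFPsg. The groups overlapped, and the log2 change of 0.31 ± 0.15 was not called (edgeR adjusted p = 0.0864), while with guide 1 alone it was 0.42 (edgeR adjusted p = 0.0464). Its promoter stretch is the one that matched Trim12a at all 60 positions. Of the 50-base words of Trim5 transcripts 36.3% occur in transcripts of other genes, 23.5% in Trim12c. How reads matching several genes were counted is not given in the sources used here. Trim5, Trim12a and Trim12c summed changed by 2.21 on the log2 scale (edgeR adjusted p = 1.49e-13). With each guide Trim5 was the smallest part of that sum, which does not settle its own value. Trim6, at the edge of the block, had 16 reads over all libraries and was not tested.

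**Figure D2:**
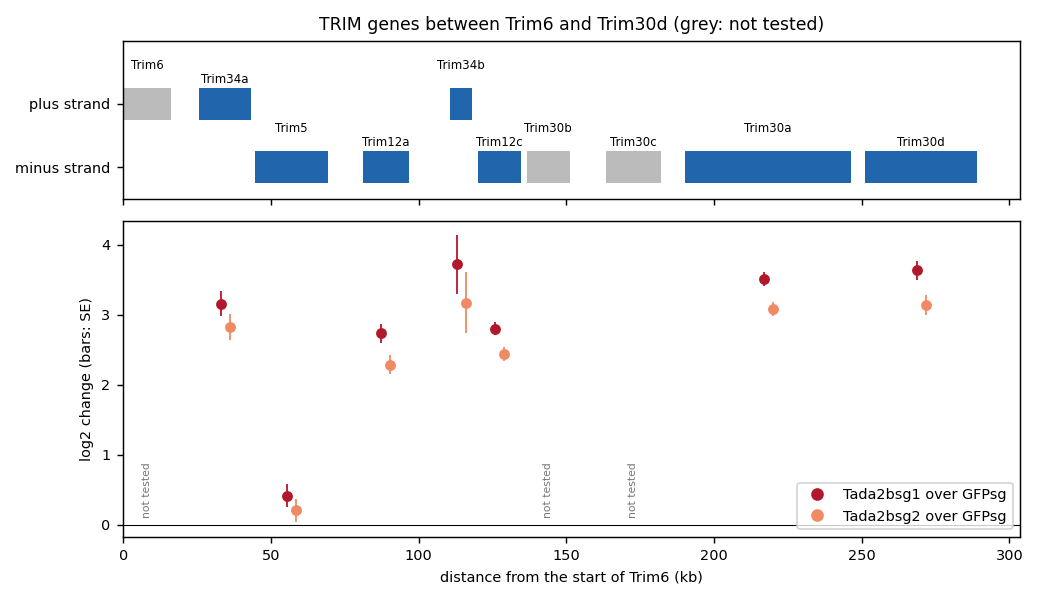
Position of the 10 TRIM genes of the chromosome 7 block, by strand, with distance from the start of Trim6 in kb (upper panel), and the log2 change with each guide over GFPsg at the middle of each tested gene (lower panel; bars, SE). Trim5 lies near 0, between neighbours that rose by 2.29 or more with each guide, and guide 1 points lie above guide 2 points.

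Outside the block, the largest gain in CPM was that of Trim25 (ENSMUSG00000000275, chromosome 11, 88999376 to 89020293), an E3 ligase of the RNA sensor RIG-I pathway. It had 115, 120 and 120 CPM with guide 1 and 110, 106 and 112 CPM with guide 2, against 28.0, 30.6 and 28.9 CPM in GFPsg. It rose 3.90-fold (log2 1.96 ± 0.04, SE; edgeR adjusted p = 1.64e-16). Per kb of exons, its level took rank 3 among the 44 tested members with guide 1 and rank 4 with guide 2, against rank 13 in GFPsg. The window of Trim25 held no letters of the ISRE as searched.

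Trim21, the cytosolic antibody receptor (ENSMUSG00000030966, chromosome 7, 102557921 to 102565486), had 17.3, 18.2 and 19.1 CPM with guide 1 and 16.5, 15.6 and 18.0 CPM with guide 2, against 4.61, 5.49 and 4.28 CPM in GFPsg. It rose 3.65-fold (log2 1.87 ± 0.08, SE; edgeR adjusted p = 2.36e-12), without overlap. The remaining interferon-listed members rose by less. Trim26, an E3 ligase of nuclear IRF3, had 41.8 to 43.5 CPM with guide 1 and 40.2 to 42.4 CPM with guide 2, against 27.6 to 28.8 CPM in GFPsg (log2 0.57 ± 0.04). Trim56, which acts on STING and cGAS signalling, had 34.4, 33.3 and 35.4 CPM with guide 1 and 39.8, 33.4 and 30.04 CPM with guide 2, against 25.5, 22.7 and 23.0 CPM in GFPsg (log2 0.53 ± 0.07). Trim14, an adaptor at MAVS without a RING domain, changed by 0.51 ± 0.15 (edgeR adjusted p = 0.0106), a call lost without GFPsg replicate 2 (log2 0.43, adjusted p = 0.0522). Its exons overlap those of Nans on the other strand over 31.3% of their length, and the strand setting of the counting is not given in the sources used here.

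A pair of genes that are not on the interferon list also rose by more than 5-fold. Trim16, a TRIM without a RING domain linked to autophagy of damaged lysosomes and to the oxidative stress response (ENSMUSG00000047821, chromosome 11, 62820231 to 62850808), had 12.1, 10.5 and 10.8 CPM with guide 1 and 8.68, 8.66 and 8.07 CPM with guide 2, against 0.932, 0.855 and 0.965 CPM in GFPsg. It rose 10.6-fold (log2 3.40 ± 0.10, SE; edgeR adjusted p = 1.08e-14), and the GFPsg libraries lay close together, far below the others. Of its exons 5.19% overlap Fbxw10 on the same strand. Trim47, a cytoplasmic E3 ligase (ENSMUSG00000020773, chromosome 11, 116105752 to 116127210), had 2.24, 2.38 and 2.13 CPM with guide 1 and 2.13, 2.28 and 2.39 CPM with guide 2, against 0.284, 0.495 and 0.504 CPM in GFPsg. It rose 5.29-fold (log2 2.40 ± 0.18, SE; edgeR adjusted p = 3.67e-09).

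Trim47 and Trim65 overlap over 225 bases of exon on the same strand and moved in opposite directions. Trim65, an E3 ligase of the RNA sensor MDA5, had 3.71, 3.88 and 3.64 CPM with guide 1 and 3.84, 3.60 and 3.84 CPM with guide 2, against 5.70, 5.13 and 5.20 CPM in GFPsg. It fell by 0.51 on the log2 scale (SE 0.08; edgeR adjusted p = 3.06e-05), with all knockout libraries below all GFPsg libraries.

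**Figure D3:**
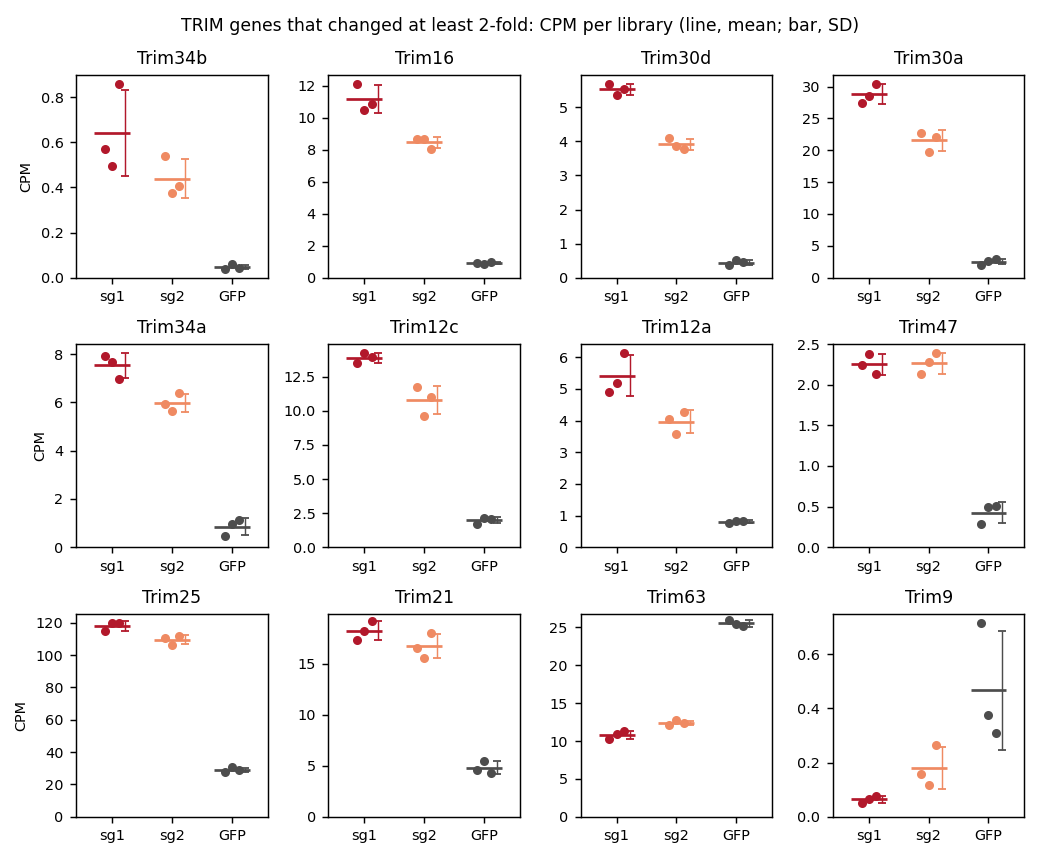
CPM in each library (points; line, mean; bar, SD, n = 3) of the 12 TRIM genes that changed at least 2-fold, with guide 1 (sg1), guide 2 (sg2) and GFPsg (GFP) from left to right and a separate y axis from 0 for each gene. In all 12 panels the GFPsg libraries lie apart from the libraries of both guides, lowest in 10 panels and highest for Trim63 and Trim9.

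Of the genes that fell, Trim63 changed most among those above 1 CPM. It encodes MuRF1, a muscle RING-finger ligase known as an atrophy gene (ENSMUSG00000028834, chromosome 4, 134315120 to 134329629). It had 10.3, 11.0 and 11.3 CPM with guide 1 and 12.2, 12.7 and 12.3 CPM with guide 2, against 26.0, 25.4 and 25.1 CPM in GFPsg. It fell by 1.14 on the log2 scale (SE 0.05; edgeR adjusted p = 1.7e-12). The other muscle RING-finger genes, Trim54 and Trim55, had 2 and 3 reads over all libraries. Of the 6 muscle markers, Ttn (821 reads over all libraries) fell by 0.74 and Acta1 (77 reads) rose by 1.75 on the log2 scale, Ckm had 19 reads, Myog 1 and Myod1 and Myh1 none. Their part in the Trim63 result was not tested.

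Trim9, a microtubule-associated ligase of neurons (ENSMUSG00000021071, chromosome 12, 70244533 to 70347614), stood at 0.0506, 0.0672 and 0.0770 CPM with guide 1 and 0.158, 0.116 and 0.265 CPM with guide 2, against 0.716, 0.375 and 0.308 CPM in GFPsg, where replicate 1 was the highest. It fell by 2.10 on the log2 scale (SE 0.37; edgeR adjusted p = 0.000126), from counts of 4 to 53 reads a library, and GFPsg was the one group in which all 3 libraries reached the cutoff of the filter. Its class of COS-FN3-PRY-SPRY proteins, which bind microtubules, had 4 tested members of which 2, with Trim9, fell and 1 rose. Of all tested genes, 26.3% were called lower and 24.7% higher. Trim36 had 2.20, 1.96 and 2.51 CPM with guide 1 and 2.29, 2.74 and 2.58 CPM with guide 2, against 2.92, 3.13 and 3.51 CPM in GFPsg, and fell by 0.42 (edgeR adjusted p = 0.00401). Trim67, the neuronal paralog of Trim9, changed by 0.55 (edgeR adjusted p = 0.0351), with overlapping groups, and Trim46 was not called (0.060).

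In the NHL class, whose C-terminal propeller binds RNA or proteins, 2 of 4 tested members fell, against 26.3% of all tested genes. Trim2, which marks neurofilament light chain for degradation, had 21.4, 23.7 and 20.7 CPM with guide 1 and 25.1, 25.9 and 24.2 CPM with guide 2, against 40.9, 37.3 and 38.9 CPM in GFPsg. It fell by 0.74 on the log2 scale (SE 0.05; edgeR adjusted p = 8.44e-10). It is the member that fell and whose window held an ISRE match, at 1 of its starts. Trim32, mutated in a limb-girdle muscular dystrophy in humans, had 29.9, 29.3 and 27.2 CPM with guide 1 and 31.5, 30.1 and 30.1 CPM with guide 2, against 35.6, 33.1 and 29.9 CPM in GFPsg, and fell by 0.15 (edgeR adjusted p = 0.0253) with overlapping groups. Trim3 (0.065) and the stem cell gene Trim71 (−0.19) were not called.

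The 2 tested chromatin readers with a PHD finger and a bromodomain fell slightly with both guides. Among all tested genes, 26.3% were called lower in the knockout contrast, 24.5% with guide 1 and 23.0% with guide 2. Trim33, which acts with SMAD factors, had 47.8, 48.4 and 45.9 CPM with guide 1 and 54.0, 54.0 and 49.0 CPM with guide 2, against 61.1, 60.2 and 58.7 CPM in GFPsg, and fell by 0.27 (edgeR adjusted p = 1.9e-05). Trim24, a nuclear receptor cofactor, had 48.9, 48.4 and 48.4 CPM with guide 1 and 49.5, 50.8 and 48.9 CPM with guide 2, against 56.6, 55.3 and 57.7 CPM in GFPsg, and fell by 0.20 (edgeR adjusted p = 7.83e-05). Neither pair of groups overlapped. The third gene of the class, the spermatid gene Trim66, had 43 reads over all libraries and was not tested.

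The 3 members with the most CPM, Trim59, Trim44 and Trim37, changed by 0.26 or less on the log2 scale. Trim59, which is anchored in membranes, had 158, 159 and 163 CPM with guide 1 and 145, 154 and 155 CPM with guide 2, against 123, 132 and 134 CPM in GFPsg, and rose by 0.26 (edgeR adjusted p = 1.55e-05). Trim44, a TRIM without a RING domain, had 131, 137 and 136 CPM with guide 1 and 150, 139 and 140 CPM with guide 2, against 123, 114 and 118 CPM in GFPsg, and rose by 0.23 (edgeR adjusted p = 6.52e-05). Trim37, a ligase that restrains centriole assembly, had 122, 126 and 122 CPM with guide 1 and 127, 127 and 124 CPM with guide 2, against 130, 138 and 138 CPM in GFPsg. Its change of −0.12 (edgeR adjusted p = 0.006) was called, but it was lost with library size alone (−0.032, adjusted p = 0.4), without GFPsg replicate 2 (−0.091, adjusted p = 0.0642) and without GFPsg replicate 3 (−0.094, adjusted p = 0.0643).

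Per kb of exons, Trim59 had the highest level in every group, at 47.8 ± 0.83 CPM per kb with guide 1, 45.1 ± 1.65 with guide 2 and 38.7 ± 1.87 in GFPsg (SD, n = 3 each). Trim44 came next in every group, at 23.9 ± 0.56, 25.3 ± 1.13 and 20.9 ± 0.87 CPM per kb. Trim30a reached 7.01 ± 0.37 and 5.24 ± 0.39 CPM per kb with the guides, against 0.62 ± 0.11 in GFPsg. Summed over all 67 members, the level was 1230 ± 8.94 CPM with guide 1 and 1215 ± 13.3 CPM with guide 2, and 1063 ± 2.87 CPM in GFPsg.

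**Figure D4:**
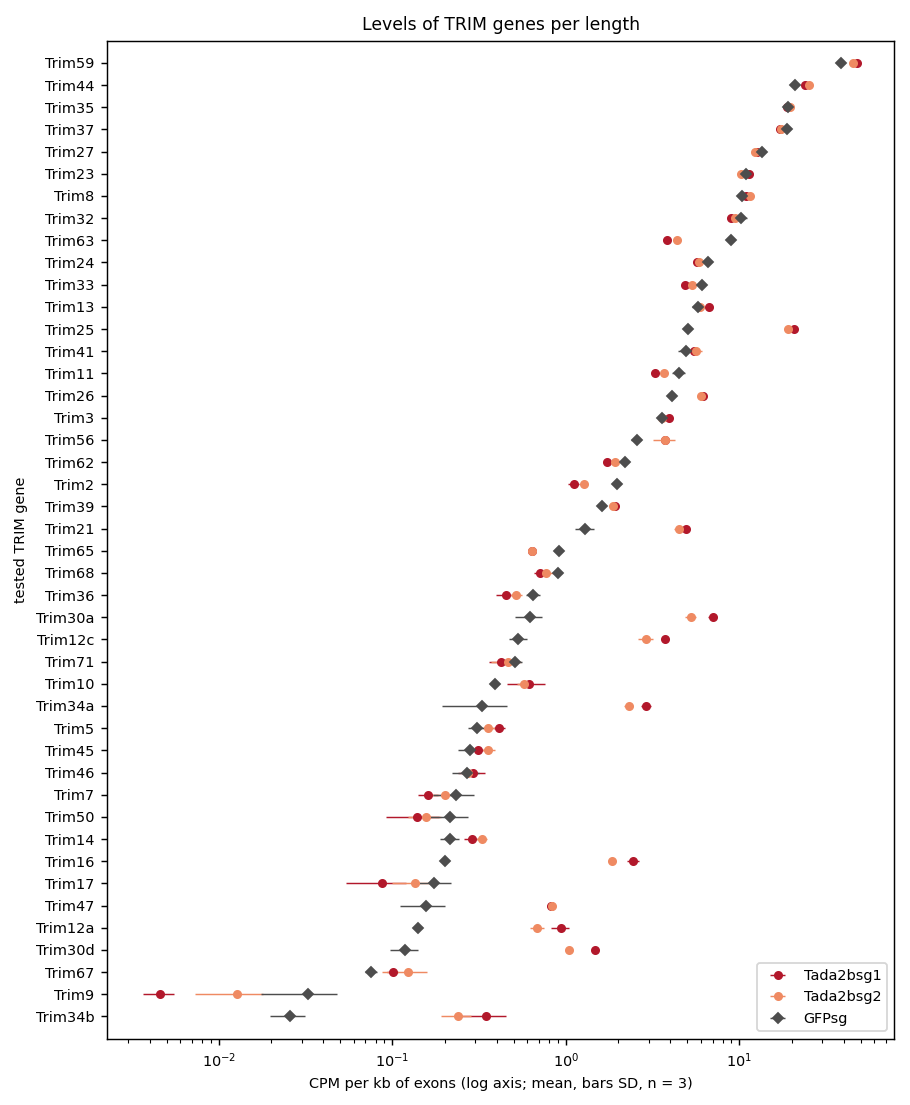
Mean level of each tested TRIM gene in CPM per kb of exons (x axis, log scale; bars, SD, n = 3) with guide 1, guide 2 and GFPsg, ordered by the GFPsg level (y axis). The 2 genes at the top, Trim59 and Trim44, hold those ranks in all 3 groups, and of the 10 genes that rose at least 2-fold all but Trim25 take ranks 22 to 44 in the GFPsg order.

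Of the other tested members, 3 rose and 5 fell by modest amounts, while 24.7% of all tested genes were called higher and 26.3% lower. Trim10, an erythroid gene (0.60), Trim39, which stabilises MOAP1 (0.22), and Trim41, a ligase of protein kinase C (0.16), rose. Trim17, which marks MCL1 in neurons (−0.68), Trim11, linked to protein quality control (−0.37), Trim68, an androgen receptor cofactor (−0.29), Trim62, a ligase of CARD9 (−0.27), and Trim27, a RET fusion partner (−0.12), fell. Of the exons of Trim17, 19% overlap Hist3h2a on the same strand. Taken singly, neither guide gave a call for Trim41 (edgeR adjusted p = 0.119 with guide 1 and 0.0521 with guide 2). Trim17 (adjusted p = 0.367), Trim32 (0.173), Trim68 (0.131) and Trim62 (0.0538) were not called with guide 2. Trim67 (0.176) and Trim14 (0.0608) were not called with guide 1. The calls of Trim41, Trim17, Trim68, Trim27, Trim32 and Trim67 each missed the threshold under 1 or more of the alternatives run. With library size alone the calls of Trim27 (−0.036; adjusted p = 0.382), Trim32 (−0.064), Trim68 (−0.20) and Trim17 (−0.60) were lost. With DESeq2 the calls of Trim17 (adjusted p = 0.0715), Trim68 (0.0633) and Trim32 (0.0532) were lost, and Trim17 also with the replicate block (0.0511). Trim41 was lost without GFPsg replicate 2 or 3, Tada2bsg1 replicate 2 or Tada2bsg2 replicate 1, with adjusted p up to 0.166. Trim17 was lost without 6 of the 9 libraries, namely GFPsg replicate 1 or 2, Tada2bsg1 replicate 2 or 3 and Tada2bsg2 replicate 1 or 3, with adjusted p up to 0.24. Trim68 was lost without GFPsg replicate 2, Tada2bsg1 replicate 1 or Tada2bsg2 replicate 1 (adjusted p up to 0.134). Trim32 was lost without GFPsg replicate 1 or 2, Tada2bsg1 replicate 3 or Tada2bsg2 replicate 2 or 3 (up to 0.195), and Trim67 without GFPsg replicate 1 or 3, Tada2bsg1 replicate 1 or 3 or Tada2bsg2 replicate 1 or 2 (up to 0.0948).

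Among the members that were not called, Trim23, a ligase with an ARF GTPase domain, had 63.7, 66.0 and 65.1 CPM with guide 1 and 56.2, 59.4 and 60.6 CPM with guide 2, against 56.3, 66.5 and 65.7 CPM in GFPsg. Trim13, anchored in the endoplasmic reticulum, had 11.2, 11.5 and 10.4 CPM with guide 1 and 10.1, 9.33 and 10.1 CPM with guide 2, against 8.70, 10.0 and 9.96 CPM in GFPsg, and Trim8, a ligase of NF-kB signalling, had 42.8, 40.6 and 37.5 CPM and 42.4, 41.9 and 43.2 CPM, against 41.1, 36.8 and 37.6 CPM. In these the groups overlapped. Trim45, linked to MAPK output, had 1.86, 1.65 and 2.07 CPM with guide 1 and 1.89, 2.22 and 2.27 CPM with guide 2, against 1.96, 1.59 and 1.497 CPM in GFPsg, also with overlap. Trim35, Trim46, Trim3, Trim71, Trim7, Trim50 and Trim5 were the other tested members not called, with log2 changes between −0.55 and 0.31.

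The 23 members below the filter had 0 to 57 reads each over all 9 libraries. Of these, 5 had none, namely Trim58, Trim31, Trim72, Trim60 and Trim42. The cleavage-stage embryo genes Trim43a, Trim43b and Trim43c had 14, 10 and 20 reads. The highest sums were those of Trim15 and Trim75, with 57 reads each.

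Promoter matches were then counted by call. Of members with a window, 7 of the 17 that rose held the ISRE letters, 1 of the 9 that fell, 1 of the 7 not called and none of the 19 not tested. These counts are by gene, where any matching window was enough. By window, 10 of the 66 windows of the members held the letters, against 3.44% of all windows. The genes with a match are not independent, since the 60 bases of Trim30a and Trim30d were identical at 59 positions and those of Trim12a and Trim12c at 57. Among members with a window that rose at least 2-fold, 6 of 9 held the ISRE letters, namely Trim12a, Trim12c, Trim21, Trim30a, Trim30d and Trim34a, and Trim25, Trim34b and Trim47 did not. The GAS motif, TTCNNNGAA with N any base, was searched in the same windows. It was held by none of the 17 members that rose and none of the 9 that fell. Of those not called 2 of 7 held it, and of those not tested 4 of 19. By window, 7 of the 66 windows of the members held it, against 8.3% of all windows.

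Of 21 genes of cytosolic RNA and DNA sensing, 12 rose, 5 fell and 4 were not called, against 24.7% higher and 26.3% lower of all tested genes, with a median log2 change of 0.24. Ddx58, which encodes the RIG-I sensor, rose by 2.71, Ifih1, which encodes MDA5, by 2.20, the regulator Dhx58 by 3.04 and the ubiquitin-like modifier Isg15 by 2.95. The 5 that fell, named after their values were seen, were Ikbke by 0.79, Traf6 and Traf3 by 0.17 each, Tab3 by 0.12 and Irf3 by 0.11. With guide 2 alone 12 rose and 1 fell, against 22.1% higher and 23.0% lower of all tested genes. Among 13 genes of the interferon receptors and the ISGF3 pathway, 8 were called higher and 3 lower, with a median of 0.42. Irf9, a subunit of ISGF3, rose by 2.77 and the ISG15 protease Usp18 by 3.90, and the receptor gene Ifngr2 fell by 0.68.

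Relatives of the family that do not carry a Trim symbol gave 2 that rose, 4 that fell and 2 not called among 8 tested of 10. The shares over all tested genes were 24.7% higher and 26.3% lower. Pml, also known as TRIM19, which builds nuclear bodies and is interferon-inducible, rose by 1.05, and Rnf135, a RIG-I ligase, by 0.24. Rnf135 is also counted among the sensing genes above. Fsd1l fell by 1.13, Mid1, a microtubule-associated ligase, by 0.46, its paralog Mid2 by 0.21 and Fsd1 by 0.85. For these 6 relatives the highest edgeR adjusted p was 0.00501. With guide 2 alone 2 rose and 2 fell, against 22.1% higher and 23.0% lower of all tested genes. Mid2 (edgeR adjusted p = 0.0706) and Fsd1 (0.0769) were not called there.

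Guide 2 was set against guide 1 to test the difference between the guides. Of the 44 tested members 5 were called, all lower with guide 2, against 3.68% of all tested genes, 1.02% lower and 2.66% higher. Trim30d averaged 3.91 ± 0.16 CPM with guide 2 and 5.53 ± 0.17 CPM with guide 1 (log2 −0.50 ± 0.10, SE; edgeR adjusted p = 0.0086). Trim30a averaged 21.5 ± 1.60 CPM with guide 2 and 28.8 ± 1.53 CPM with guide 1 (−0.42 ± 0.08; adjusted p = 0.00486). Trim16 averaged 8.47 ± 0.35 CPM with guide 2 and 11.2 ± 0.87 CPM with guide 1 (−0.40 ± 0.08; adjusted p = 0.00678).

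Trim12a (−0.45 ± 0.11; edgeR adjusted p = 0.0311) and Trim12c (−0.36 ± 0.08; adjusted p = 0.0176) were the others. Without Tada2bsg1 replicate 3 or Tada2bsg2 replicate 2, 3 members were called, since both of these were lost, with adjusted p up to 0.215 for Trim12a and 0.113 for Trim12c. Both were also lost without Tada2bsg1 replicate 2, and Trim12a without Tada2bsg2 replicate 1. Trim34a (−0.33; adjusted p = 0.23) and Trim34b (−0.55; adjusted p = 0.36) were not called, nor were Trim25 (−0.11; adjusted p = 0.178), Trim21 (−0.13; adjusted p = 0.428) and Trim47 (0.011; adjusted p = 0.982). The libraries of the guides did not overlap for 19 of the 44 members, against 23.3% of all tested genes.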

How the data were processed

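RNA of 9 B16F10 libraries was sequenced after KAPA Stranded mRNA-Seq preparation, per the labels' protocols. The deposited values are raw counts of reads per gene, made with bcl2fastq, HISAT2 and HTSeq on mm10, per the submitters' processing notes, and versions, annotation, strand setting and filters are not given in the sources used here. Symbols, exons and positions came from GENCODE M21 (54723 of 54752 identifiers matched). edgeR 4.0.16 in R 4.3.3 was fitted to all genes kept by filterByExpr (count minimum 10, 17931 genes) with TMM scaling, 1 quasi-likelihood fit of the 3 groups and Benjamini-Hochberg adjustment over all genes, with calls at 0.05. The SE is the log2 change over the square root of F. The pipeline was tested on simulated counts. Replicate pairs differed by more than sampling noise (chi-square per degree of freedom 7.12 to 22.7).

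The members and lists were chosen with earlier results of these data known. Library values are given for members called with both guides at 2-fold or more, the 3 highest in CPM, the 3 that differ most between guides and up to 2 of each class with the lowest p. Trim5, Trim26, Trim65 and the untested members were named after their values were seen. The alternatives were other scaling, no filter, DESeq2 1.42.0, a replicate block, fits of only the groups compared, each library left out, and paralogs summed (chosen after seeing the data). Sequences are RefSeq promoter windows of GRCm38.p6. Matches of 50-base words were exact, in GENCODE M21 transcripts. Protein sequences were not used here.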

Additional observations from a re-analysis of the deposited data

Results flagged for a closer look

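The effect of the guides over the same GFPsg libraries differed for 5 members in the test of guide 2 against guide 1 (edgeR, adjusted p under 0.05). All were lower with guide 2, by −0.50 for Trim30d, −0.45 for Trim12a, −0.42 for Trim30a, −0.40 for Trim16 and −0.36 for Trim12c on the log2 scale, and all were higher with both guides than in GFPsg. Of these, 4 lie in the chromosome 7 block and Trim16 lies on chromosome 11.

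Trim30c, which was below the filter and entered no test, had 26 reads over the 6 libraries labelled knockout, at least 1 in each, and none in GFPsg.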

How the results depend on the processing

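Of the 33 members called in the knockout contrast, 25 kept their call and direction under every alternative run for them, 8 missed the threshold under at least 1, and none changed sign. Uncalled members crossed the threshold under at least 1 alternative in 6 cases. Changes of sign were seen for 3 uncalled members. Trim23 was at 0.061 with library size alone, and leaving out 1 library gave −0.099 to 0.029 for Trim23, −0.015 to 0.040 for Trim35 and −0.058 to 0.18 for Trim46. The cause was not tested. Leaving out 1 library gave 27 to 32 called members in the knockout contrast, 27 to 33 with guide 1, 25 to 30 with guide 2 and 3 to 7 for guide 2 against guide 1. With a replicate block the counts were 33, 33, 31 and 9, the last with 3 higher and 6 lower, and all 5 of the calls made without the block were among them. The labels do not say that a number marks a shared culture or batch. Deviations of libraries with the same number correlated at −0.012 to 0.10 over 9 pairs, and the own number correlated best in 14 of 18 cases, a hint from the data and not the design. DESeq2 called 31, 30, 29 and 6 members. With library size alone the median over all tested genes was 0.066 on the log2 scale, and 63.3% of all calls were higher against 48.4% with TMM. Depth limits Trim9, Trim34b and the 23 members not tested.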

Other observations

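Among the 10 members that rose at least 2-fold, GFPsg replicate 1 was the lowest of the 3 GFPsg libraries for 8, replicate 2 for 1 and replicate 3 for 1, a pattern seen after the values were known. Without GFPsg replicate 1 the log2 changes of these 10 members ran from 1.84 to 3.41 with a median of 2.61, against 1.87 to 3.45 with a median of 2.81 with all libraries.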
